A study of Mus musculus with 8 samples.

Results

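The 9 genes described here are the urea cycle and arginine metabolism genes *Cps1*, *Nags*, *Otc*, *Ass1*, *Asl*, *Arg1*, *Arg2*, *Oat* and *Aldh18a1*, 9 of the 55414 Ensembl gene identifiers in the deposited count table. They were selected on their place in this pathway, with the diet comparison of these same counts already known. The diet values of the 9 genes are therefore given as a description, without a test of their own. The counts come from Paneth cells sorted by FACS out of small intestine, from 8 mice of the strain C57BL/6J, 4 on standard chow (control) and 4 on zinc depleted chow (zinc deficient) for 7 weeks. No genotype other than C57BL/6J and no further treatment is named, and both diets went through the same sort and the same stranded mRNA library kit. The comparison of the diets asks which transcripts in Paneth cells differ when zinc is withheld.

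Carbamoyl phosphate synthetase 1 (CPS1) joins ammonia and bicarbonate into carbamoyl phosphate inside mitochondria, and ornithine transcarbamylase (OTC) combines this product with ornithine to form citrulline. In the liver, citrulline is turned into arginine by argininosuccinate synthase (ASS1) and argininosuccinate lyase (ASL), and arginase 1 (ARG1) splits arginine into urea and ornithine. The epithelium of the small intestine instead makes ornithine from glutamine and glutamate through pyrroline-5-carboxylate synthase (ALDH18A1) and ornithine aminotransferase (OAT), and it is known as the main source of the citrulline in blood, from which the kidney makes arginine.

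Total counts per mouse ranged from 8557690 to 12648005. Levels are given as counts per 1e+06 counts (CPM) of a library size scaled by TMM, a method that sets the bulk of genes equal between libraries, because a few secretory transcripts take most of the reads of a Paneth cell. TMM factors lay between 0.928 and 1.57 for control mice, and between 0.719 and 1.10 for zinc deficient mice. Markers of Paneth cells (7 genes, among them *Lyz1* and *Defa24*) summed to 294532 to 608001 CPM in control mice against 477179 to 846910 CPM in zinc deficient mice. On this scale all 7 had a log2 fold change above 0 (median 0.46). Under library size alone, where the median of all genes was -0.37, *Defa30* (-0.15) and *Itln1* (-0.14) were below 0. *Lyz1* was then at 0.10, *Defa24* at 0.14, *Mmp7* at 0.20, *Ang4* at 0.66 and *Mptx2* at 1.11. Of the 7, 0 were called by edgeR (0.403% of all genes tested). At an unadjusted p under 0.05 there were 2, *Ang4* and *Mptx2* (10.5% of all genes), and 1 was called by DESeq2 (1.06%). This was *Mptx2*, a secreted pentraxin (log2 fold change 1.45, standard error 0.34, edgeR adjusted p = 0.0712, DESeq2 adjusted p = 0.00825), which did not overlap between diets, nor did *Ang4*, an antimicrobial ribonuclease (0.99, standard error 0.35, edgeR adjusted p = 0.276). The zinc deficient mice lay wholly above the control mice for 2.3% of all genes tested. Of the markers of goblet, tuft and enteroendocrine cells, 0 of 6, 0 of 4 and 0 of 3 tested were called by edgeR, 0 also at an unadjusted p under 0.05. With so few genes and the shares above, this does not show that these markers were unchanged. Zinc deficient replicate 3 stood apart in the 4 tuft markers, which summed to 282 CPM there and to 16.4 to 76.8 CPM in the other 7 mice, and it had 32 counts of the leukocyte gene *Ptprc*, against at most 4 elsewhere. Of the lymphocyte markers *Cd3e* and *Ms4a1* had no count, and of the 5 macrophage markers *Adgre1* and *Csf1r* had none. In bulk RNA, fewer cells of a type and less RNA per cell cannot be told apart.

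Per length of transcript, *Oat*, *Cps1* and *Aldh18a1* stood highest and the arginases lowest. Reads per kilobase of the canonical transcript, scaled to total counts as CPM are (RPKM), averaged 101 ± 44.8 for *Oat*, 44.2 ± 22.7 for *Cps1* and 42.1 ± 13.3 for *Aldh18a1* (SD, n = 8 mice). The next group held *Ass1* with 7.75 ± 1.90 RPKM, *Asl* with 6.10 ± 1.14, *Otc* with 4.50 ± 2.24 and *Nags* with 3.12 ± 1.19 (SD, n = 8). *Arg2* had 1.95 ± 1.22 RPKM and *Arg1* 1.15 ± 0.278 (SD, n = 8). Neighbours in the order by mean log2(RPKM + 0.1), in which *Aldh18a1* comes before *Cps1*, were compared within mice by exact permutation, two-sided, over every flip of sign, and p was adjusted over the 8 pairs. *Oat* exceeded *Aldh18a1* in 8 of 8 mice, by 1.16 ± 0.54 on this log2 scale (SD, n = 8, exact permutation p = 0.00781, the smallest that 8 mice allow, adjusted p = 0.0208). *Cps1* exceeded *Ass1* in 8 of 8 mice, by 2.36 ± 0.78 (SD, n = 8, exact p = 0.00781, adjusted p = 0.0208). *Ass1* exceeded *Asl* in 8 of 8 mice by a smaller step, 0.33 ± 0.18 (SD, n = 8, exact p = 0.00781, adjusted p = 0.0208). This step rests on the canonical lengths, 1761 bp for *Ass1* and 2659 bp for *Asl*. Without division by length, *Asl* stood above *Ass1*. The level of *Ass1* is also uncertain because of a near copy of its transcript, described below.

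The other 5 neighbours did not differ beyond the spread between mice. *Aldh18a1* and *Cps1* differed by 0.04 ± 0.47 on the log2 scale (SD, n = 8, exact p = 0.820, adjusted p = 0.820), with *Aldh18a1* above in 4 of 8 mice. The adjusted p of the exact permutation test was 0.156 for *Asl* and *Otc*, 0.125 for *Otc* and *Nags*, 0.0938 for *Nags* and *Arg2*, and 0.420 for *Arg2* and *Arg1* (n = 8 mice each). The rank of *Oat* rests on the length it is divided by, 2206 bp for its canonical transcript. With the summed length of all its annotated exons, 7795 bp, *Oat* had a mean of 28.5 RPKM, level with *Aldh18a1* (28.5), and *Cps1* came first with 40.0 RPKM. On the canonical length, *Cps1* ranked above *Aldh18a1* by mean RPKM in the control mice (62.8 ± 15.9 against 48.9 ± 14.9, SD, n = 4) and below it in the zinc deficient mice (25.7 ± 5.83 against 35.3 ± 8.13, SD, n = 4).

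**Figure D1:**
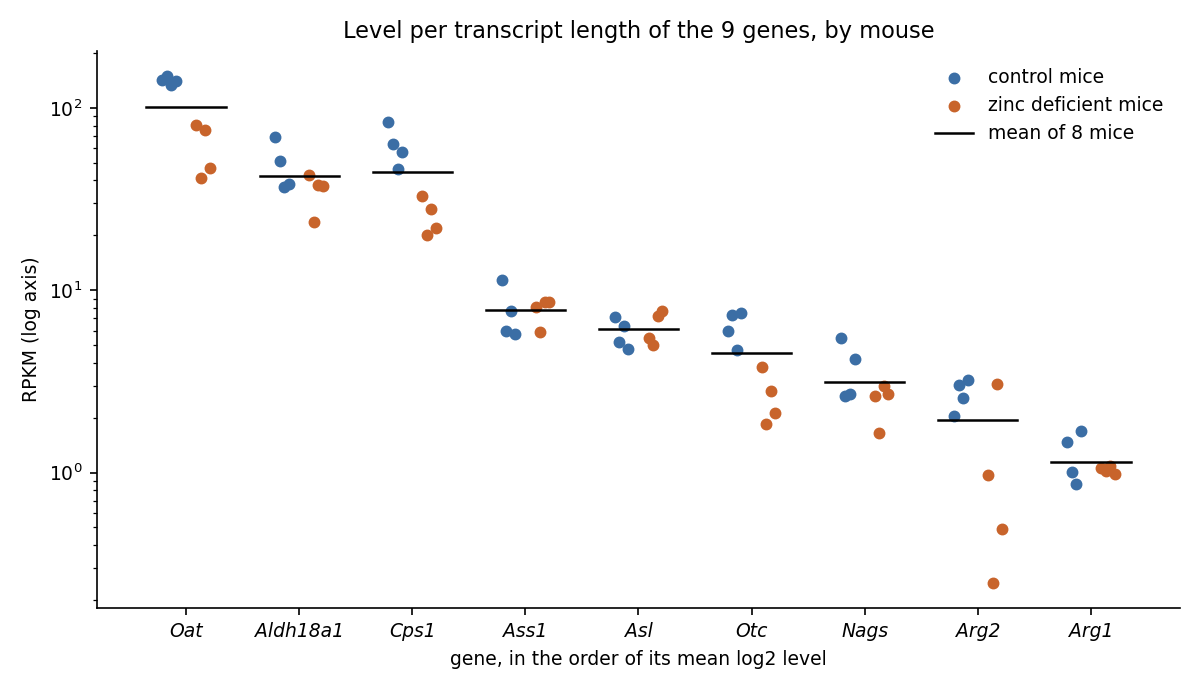
RPKM per canonical transcript length (log axis) of each of the 9 genes in each mouse, control in blue and zinc deficient in orange, with the mean of the 8 mice as a line. *Oat*, *Aldh18a1* and *Cps1* lie between 20.2 and 149 RPKM in every mouse, and the other 6 genes at 11.3 RPKM or less.

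*Cps1* (ENSMUSG00000025991), the entry enzyme of the pathway, is on chromosome 1 (plus strand, 67161988 to 67270418 on GRCm39, the build of all positions given), and its canonical transcript has 38 exons and 5555 bases. The control mice had 298, 302, 278 and 337 CPM of *Cps1* (replicates 1 to 4). The zinc deficient mice had 195, 156, 142 and 143 CPM. Every control mouse stood above every zinc deficient mouse, and the lowest control value was 278 CPM against a highest zinc deficient value of 195 CPM. The means were 304 ± 24.7 and 159 ± 24.9 CPM (SD, n = 4), a log2 fold change of -0.93 with a standard error of 0.16 (zinc deficient over control, edgeR). *Cps1* alone held 35.1% to 42.8% of the counts of the 9 genes in the control mice and 29.99% to 34.9% in the zinc deficient mice.

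*Nags* (chromosome 11, plus strand, 102036339 to 102040303) makes N-acetylglutamate, without which CPS1 is inactive. Its level was far lower, at 7.12, 4.59, 5.93 and 9.0 CPM in the control mice and 5.72, 4.67, 5.50 and 6.45 CPM in the zinc deficient mice. The diets overlapped, with a log2 fold change of -0.25 (standard error 0.24). *Cps1* had 48.0 ± 12.5 counts for each count of *Nags* in the control mice and 28.9 ± 5.82 in the zinc deficient mice (SD, n = 4).

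*Otc* (chromosome X, plus strand, 10118503 to 10187265), the next enzyme in the mitochondrion, had 8.95, 14.9, 11.98 and 18.6 CPM in the control mice. The zinc deficient mice had 9.60, 6.06, 6.06 and 5.89 CPM. Control replicate 1 and zinc deficient replicate 1 crossed on this scale, whereas the diets did not overlap when CPM was taken from the total counts (11.1 to 17.6 against 4.36 to 8.97 CPM). The log2 fold change of *Otc* was -0.97 (standard error 0.24), close in size to that of *Cps1*.

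*Oat* (chromosome 7, minus strand, 132159153 to 132191517) interconverts pyrroline-5-carboxylate and ornithine. It had 199, 284, 316 and 325 CPM in the control mice and 189, 127, 152 and 122 CPM in the zinc deficient mice. The diets did not overlap, though control replicate 1 (199 CPM) and zinc deficient replicate 1 (189 CPM) came close to each other. The means were 281 ± 57.5 and 148 ± 30.7 CPM (SD, n = 4), and the log2 fold change was -0.93 (standard error 0.19). *Aldh18a1* (chromosome 19, minus strand, 40538698 to 40576949) codes for the enzyme that makes pyrroline-5-carboxylate from glutamate, the step before OAT. It had 155, 156, 141 and 142 CPM in the control mice against 161, 116, 122 and 155 CPM in the zinc deficient mice. Here the diets overlapped, and the log2 fold change was -0.10 (standard error 0.15).

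The 2 enzymes that turn citrulline into arginine had higher means in the zinc deficient mice, and their diets overlapped. *Ass1* (chromosome 2, plus strand, 31352181 to 31410862) had 12.7, 9.10, 14.6 and 10.7 CPM in the control mice. The zinc deficient mice had 15.2, 14.4, 14.0 and 18.0 CPM, a log2 fold change of 0.39 (standard error 0.18). *Asl* (chromosome 5, minus strand, 130040099 to 130058088) had 12.1, 11.9, 18.2 and 13.3 CPM in the control mice and 15.5, 18.6, 17.5 and 24.2 CPM in the zinc deficient mice. Its log2 fold change was 0.46 (standard error 0.19). The level of *Ass1* is uncertain, since 1596 of the 1761 bases of its canonical transcript (90.6%) match a processed pseudogene, *Gm5424*, on chromosome 10 (61906795 to 61908388) at 99.2% identity. *Gm5424* had 74 counts over the 8 mice, against 1186 on *Ass1*. For the other 8 genes, no stretch of at least 70 bases matched another place in GRCm39 at 97% identity or more.

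Both arginases were near the bottom of the measured range. *Arg1* (chromosome 10, minus strand, 24791118 to 24803817), the cytosolic form that dominates in liver, had 12 to 28 counts per mouse, or 1.51, 1.39, 1.51 and 2.86 CPM in the control mice and 1.83, 2.27, 1.60 and 1.87 CPM in the zinc deficient mice. Its diets overlapped (log2 fold change 0.06, standard error 0.39), and the sign of this value turned as single mice were left out (-0.04 to 0.35). *Arg2* (chromosome 12, plus strand, 79177524 to 79203075), the mitochondrial form, had 1.89, 3.77, 4.03 and 4.98 CPM in the control mice. The zinc deficient mice had 1.51, 0.505, 4.07 and 0.842 CPM, from 4 to 51 counts. Replicate 3 of this diet stood among the control mice, so the diets overlapped in spite of a log2 fold change of -1.0 (standard error 0.50), and without that mouse the log2 fold change was -1.89. This is the mouse with the high tuft markers (*Dclk1* 99.6 CPM, against at most 24.1 CPM in any other mouse). It was also highest in the goblet marker *Fcgbp* (842 CPM, against at most 439 CPM) and the enterocyte marker *Fabp1* (23.4 against at most 7.58 CPM). Of the other enterocyte markers, this mouse was highest in *Apoa4* (9.65 CPM, against at most 4.54 CPM). It was also highest, by smaller margins, in *Alpi*, *Sis*, *Mttp* and *Slc5a1*. In the enterocyte markers *Apoa1*, *Fabp2*, *Lct*, *Rbp2*, *Anpep* and *Treh* and the goblet markers *Muc2* and *Clca1*, it was not the highest. Without this mouse the log2 fold changes of *Cps1*, *Oat* and *Otc* were -0.88, -0.94 and -0.91. The part of any of these cell types in *Arg2* was not tested.

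**Figure D2:**
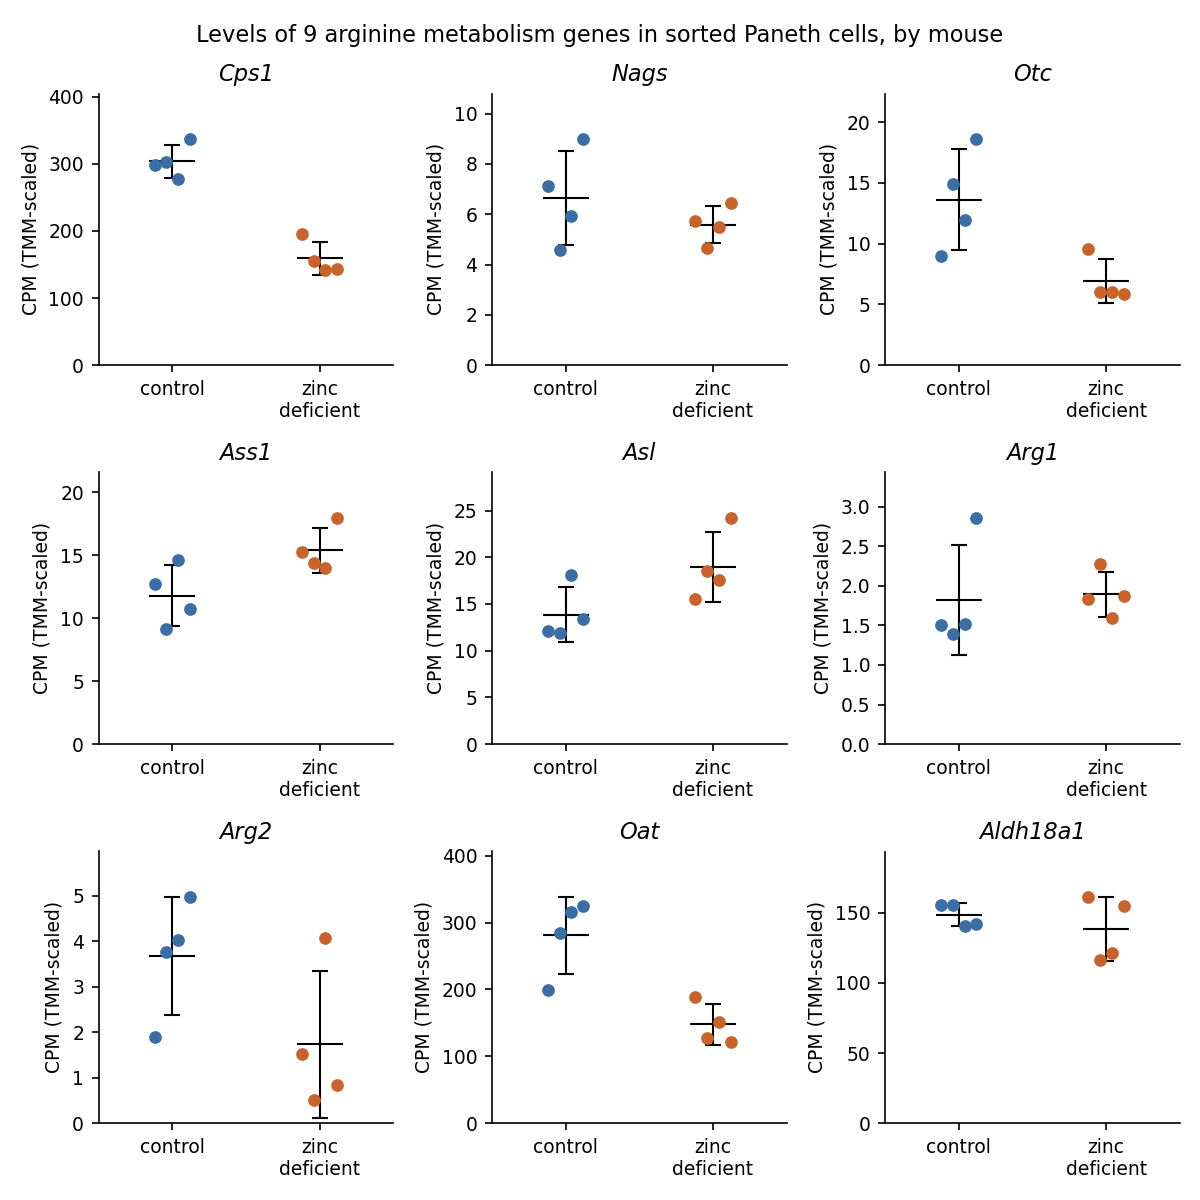
TMM-scaled CPM of the 9 genes in each mouse (1 point per mouse, 4 per diet), with the mean as a line and the SD as bars, each axis starting at 0. The diets do not overlap for *Cps1* (278 to 337 against 142 to 195 CPM) and *Oat* (199 to 325 against 122 to 189 CPM) and overlap for the other 7 genes.

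All 9 genes passed the expression filter. In the fit over all 10911 genes tested (quasi-likelihood test of edgeR, Benjamini-Hochberg adjusted p under 0.05), 2 of the 9 genes were called, *Cps1* and *Oat*, both lower in the zinc deficient mice. Over all genes tested 0.403% were called, and 0.257% were called lower. For 3.79% of all genes tested the zinc deficient mice lay wholly below the control mice, as they did for *Cps1* and *Oat*, and for 2.3% they lay wholly above, as for none of the 9 genes. Since the pathway was chosen with this contrast known, nothing is read from these counts. The call also depended on single mice. None of the 9 genes was called without control replicate 2 or 4 or without zinc deficient replicate 2 or 3, *Cps1* alone without control replicate 3 or zinc deficient replicate 4, both without zinc deficient replicate 1, and both of them with *Otc* without control replicate 1. The log2 fold changes moved less, from -1.04 to -0.88 for *Cps1* and from -1.07 to -0.85 for *Oat* as each mouse was left out in turn. DESeq2, which called 1.06% of the genes it tested, called *Cps1*, *Oat* and *Otc*.

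Scaling to library size alone lowered the median log2 fold change of all genes to -0.37, from -0.01 with TMM. Relative to that median, *Cps1* stood at -0.92, *Otc* at -0.90, *Oat* at -0.84, *Ass1* at 0.39 and *Asl* at 0.49. Before this subtraction, *Arg1* turned from 0.06 to -0.28 and *Ass1* went to 0.02 under library size alone.

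Ratios of counts within a mouse are free of any such scaling. *Cps1*, *Oat* and *Otc* kept to each other in overlapping ratios, while *Cps1* over *Nags*, *Ass1*, *Asl* and *Aldh18a1* did not overlap between diets. *Cps1* itself did not overlap, so its ratio to a gene that stays level tends to separate the diets as well. *Cps1* over the transcription factor gene *Hnf4a* also separated (1.93 ± 0.279 and 1.14 ± 0.109, SD, n = 4), while *Cps1* over *Cad* overlapped. The share of all genes whose ratio separates was not computed, and the separation is not read as a trait of this pathway. *Cps1* had 1.498, 1.06, 0.879 and 1.04 counts per count of *Oat* in the control mice and 1.03, 1.22, 0.938 and 1.17 in the zinc deficient mice. The diets overlapped, with means of 1.12 ± 0.265 and 1.09 ± 0.131 (SD, n = 4). *Cps1* over *Otc* averaged 23.7 ± 6.73 and 23.5 ± 2.28 (SD, n = 4), again with overlap. *Ass1* over *Asl* was also alike between diets, at 0.857 ± 0.133 and 0.823 ± 0.107 (SD, n = 4). *Cps1* had 24.7, 25.4, 15.3 and 25.3 counts per count of *Asl* in the control mice and 12.6, 8.39, 8.11 and 5.92 in the zinc deficient mice, without overlap. *Cps1* over *Aldh18a1* was 2.05 ± 0.214 in the control mice and 1.16 ± 0.173 in the zinc deficient mice (SD, n = 4), also without overlap. These ratios belong to the contrast that was known when the genes were chosen, and they were not tested.

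**Figure D3:**
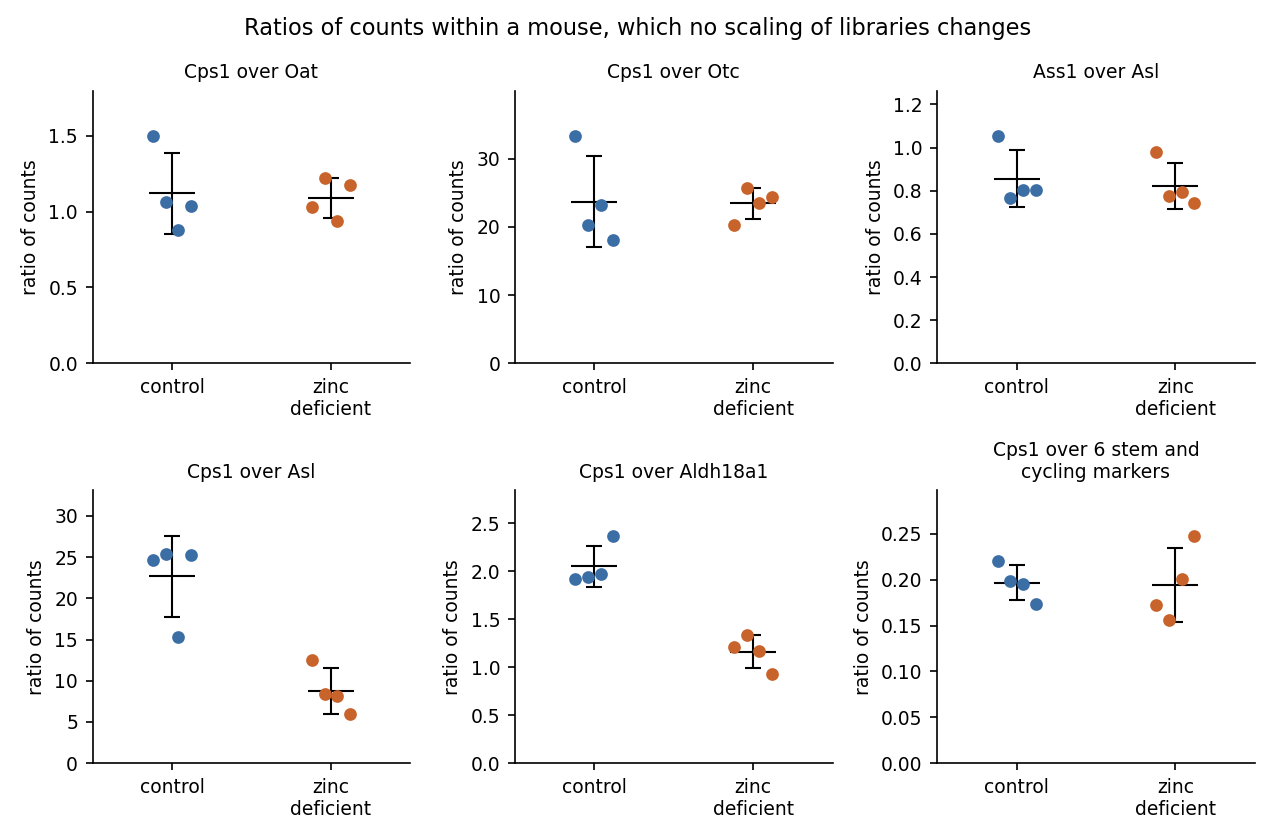
Ratios of raw counts within each mouse (1 point per mouse, line for the mean, bars for the SD, axes from 0). The diets overlap for *Cps1* over *Oat*, *Cps1* over *Otc*, *Ass1* over *Asl* and *Cps1* over the summed stem and cycling markers, and separate for *Cps1* over *Asl* and *Cps1* over *Aldh18a1*.

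Some markers of stem and cycling cells were also lower in the zinc deficient mice. The 6 genes of that list (*Lgr5*, *Olfm4*, *Ascl2*, *Smoc2*, *Mki67* and *Top2a*) summed to 1357 to 1940 CPM in the control mice and 578 to 1136 CPM in the zinc deficient mice, and all 6 had a log2 fold change below 0 (median -0.82). At an unadjusted p under 0.05 there were 5 of the 6 (10.5% of all genes tested), and 1 was called by edgeR (0.403% of all genes tested) and 2 by DESeq2 (1.06%). The gene called by both was *Top2a*, a topoisomerase of dividing cells, with a log2 fold change of -1.18 (standard error 0.21, edgeR adjusted p = 0.0229). *Olfm4*, a marker of crypt stem cells that made up most of the sum, had 1345 CPM on average in the control mice and 693 CPM in the zinc deficient mice (log2 fold change -0.96, edgeR adjusted p = 0.108, DESeq2 adjusted p = 0.00591). *Smoc2*, another stem cell marker, had 108 and 101 CPM and overlapped between diets (log2 fold change -0.10). Counts of *Cps1* per count of this list were 0.220, 0.198, 0.195 and 0.174 in the control mice and 0.172, 0.156, 0.201 and 0.248 in the zinc deficient mice, and so overlapped between diets. *Oat* (0.181 ± 0.0319 and 0.180 ± 0.0411, SD, n = 4) and *Otc* (0.00860 ± 0.00146 and 0.00832 ± 0.00170, SD, n = 4) overlapped in the same ratio. *Ass1*, *Asl* and *Aldh18a1* per count of this list were higher in every zinc deficient mouse than in any control mouse. The sum of the list was itself lower in every zinc deficient mouse, so a gene that stays level tends to come out higher in this ratio. *Aldh18a1* did so with a log2 fold change of -0.10 and overlapping CPM. Nothing about these genes is therefore read from this ratio. What part these cells have in the level of *Cps1* was not tested.

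The summed markers of mature enterocytes overlapped between diets. Of that list of 12 genes, 11 were tested and 0 were called by edgeR (0.403% of all genes tested), 0 also at an unadjusted p under 0.05 (10.5%). The list summed to 269 to 456 CPM in the control mice and 244 to 402 CPM in the zinc deficient mice. Most of this sum was *Anpep*, a brush border peptidase (226 and 212 CPM on average). *Cps1* over *Anpep* was 1.37 ± 0.255 and 0.753 ± 0.134 (SD, n = 4), without overlap, and *Alpi* had 0 to 38 counts per mouse. Hepatocytes hold the full urea cycle, and 5 hepatocyte markers summed to 6.39 to 12.6 CPM in control mice and 3.83 to 12.6 CPM in zinc deficient mice. Most of it was *Cyp2e1*, the member of the list that passed the filter (log2 fold change -0.80, edgeR adjusted p = 0.273), but *Alb* had 36 counts and *Fgb* 32 in zinc deficient replicate 1, against at most 4 and 5 in any other mouse. Zinc deficient replicate 1 also had the highest *Cps1*, *Oat* and *Otc* of its diet. In that mouse *Alb* stood at 3.88 CPM and *Cps1* at 195 CPM, and the part of hepatocytes in these levels was not tested. Without this mouse the log2 fold change of *Cps1* was -1.04, that of *Oat* was -1.07 and that of *Otc* was -1.17.

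The genes most like *Cps1* over the 8 mice were found among 5699 other genes that averaged 10 CPM or more, by the root mean square (RMS) difference of log2(CPM + 1) after the mean of each gene was subtracted. They were *Mcm6*, a subunit of the replicative helicase (RMS difference 0.136), *Shmt1*, the cytosolic serine hydroxymethyltransferase (0.137), *Lmnb1*, a nuclear lamin (0.141), *Add3*, an adducin of the membrane skeleton (0.159), and *Ube2c*, a ubiquitin conjugating enzyme of mitosis (0.166). *Mcm6* had 32.0, 27.1, 24.3 and 26.5 CPM in the control mice and 20.5, 13.6, 13.2 and 12.4 CPM in the zinc deficient mice, without overlap between diets and with zinc deficient replicate 1 nearest to the control mice, as in *Cps1*. Among the 5699 genes *Oat* ranked 15 (RMS difference 0.224), *Otc* 16 (0.227) and *Olfm4* 23 (0.248). Of the other stem and cycling markers compared, *Top2a* ranked 139 (0.348), *Lgr5* 282 (0.386), *Smoc2* 570 and *Mki67* 827. *Aldh18a1* ranked 760, *Ass1* 5149 and *Asl* 5387. These ranks describe 8 mice that share a diet contrast, and a low RMS difference mainly follows that contrast.

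**Figure D4:**
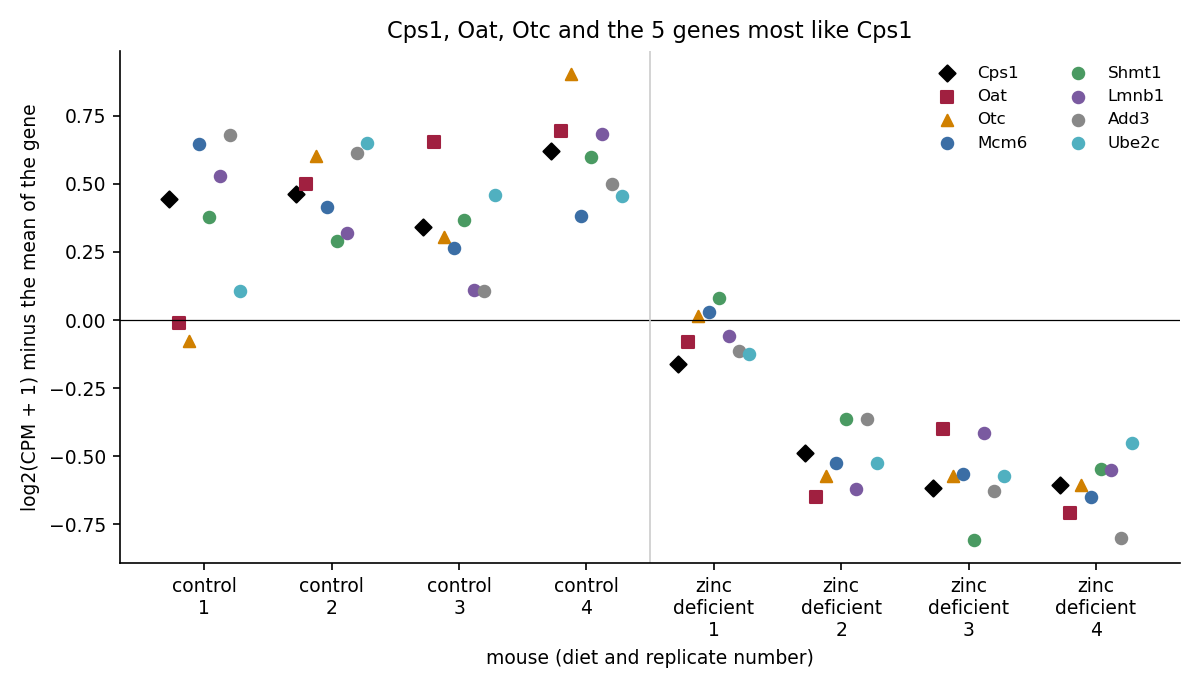
log2(CPM + 1) minus the mean of the gene, in each of the 8 mice, for *Cps1*, *Oat*, *Otc* and the 5 genes with the smallest RMS difference from *Cps1* (0.136 to 0.166). In each of these genes the values of the zinc deficient mice lie mostly below 0 and those of the control mice mostly above.

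The stretches before the start sites are shown for *Oat* and *Otc*, both of which hold a match to the metal response element and whose counts kept about the same ratio to each other in both diets (21.3 ± 3.94 and 21.6 ± 2.33 counts of *Oat* per count of *Otc*, SD, n = 4). Each is the 250 bases upstream of the annotated start of the canonical GENCODE M39 transcript, read from GRCm39 in the direction of the gene (chr7:132178128-132178377, minus strand, for *Oat* and chrX:10118253-10118502, plus strand, for *Otc*). Capitals mark a match to the core of a metal response element, the site of the zinc sensing factor MTF1, searched as TGCACNC or TGCGCNC on both strands.
Oat: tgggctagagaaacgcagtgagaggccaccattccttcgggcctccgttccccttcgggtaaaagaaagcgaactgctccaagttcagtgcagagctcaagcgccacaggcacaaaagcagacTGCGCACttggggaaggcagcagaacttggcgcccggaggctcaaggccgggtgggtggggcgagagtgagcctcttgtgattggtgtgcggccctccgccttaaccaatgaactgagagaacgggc
Otc: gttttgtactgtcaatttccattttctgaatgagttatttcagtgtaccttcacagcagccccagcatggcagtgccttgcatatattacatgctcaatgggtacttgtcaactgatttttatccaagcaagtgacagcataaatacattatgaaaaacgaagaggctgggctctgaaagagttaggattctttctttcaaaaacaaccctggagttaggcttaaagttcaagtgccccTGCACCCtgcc
*Oat* holds 1 match, 127 to 121 bases before the start, and *Otc* holds 1, 11 to 5 bases before it. *Nags* and *Ass1* hold 1 match each, and the windows of *Asl*, *Arg1*, *Arg2* and *Aldh18a1* hold none. Of the windows of 21757 protein-coding genes, 21.9% hold such a match. The letters of a TATA box (TATAAA, in 11.9% of all windows), an HNF4 site (CAAAGTCC, 1.24%), a C/EBP site (TTGCNNAA, 9.34%) and a glucocorticoid receptor half-site (AGAACA, 14.3%) were searched on both strands as well and were in none of these 8 windows. The windows of *Oat*, *Ass1*, *Asl* and *Arg1* lie inside the annotated span of the gene, which begins further upstream than the canonical transcript. Only the canonical start of each gene was searched. A match of letters is a description and not a bound site.

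The rest of the pathway was followed through 63 further genes on 7 lists, of which 53 were tested. Of these, 0 were called by edgeR, where 0.403% of all genes were called, and 0 by DESeq2. At an unadjusted p under 0.05 there were 7 of 53 (4 lower and 3 higher in the zinc deficient mice), where 10.5% of all genes tested passed. Their median log2 fold change was -0.02, against -0.01 over all genes tested.

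In the mitochondrion and at the membrane, the transport list (12 genes, 10 tested) had a median log2 fold change of -0.08. *Slc25a15*, the carrier that brings ornithine into mitochondria and takes citrulline out, had 36.2 CPM on average in the control mice and 29.4 CPM in the zinc deficient mice (log2 fold change -0.30, standard error 0.15, edgeR adjusted p = 0.511). The cationic amino acid transporter *Slc7a1* (79.3 and 75.7 CPM, log2 fold change -0.07) and *Slc3a2*, the heavy chain of several transporters (94.6 and 113 CPM, log2 fold change 0.25), were the most abundant of this list per length beside it. *Slc25a2*, another ornithine carrier, had no count in any mouse. A count of 0 allows up to 3 counts from counting error alone. After TMM scaling this is 0.162 CPM in control replicate 1, the lowest value, and 0.379 CPM in zinc deficient replicate 2, the highest.

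Glutamine and glutamate feed the pathway with nitrogen and carbon, and the 13 genes of that list had a median log2 fold change of -0.10. Its most abundant members per length were *Glul*, glutamine synthetase (82.6 and 92.7 CPM on average in the control and the zinc deficient mice), *Slc1a5*, a glutamine importer (101 and 114 CPM), and *Asns*, asparagine synthetase (166 and 194 CPM), each with a log2 fold change of 0.17 to 0.23. *Slc1a1*, a glutamate importer chosen here after its values were seen, had 5.28 and 2.35 CPM and no overlap between diets (log2 fold change -1.17, standard error 0.31, edgeR adjusted p = 0.123). Of the 6 proline and pyrroline-5-carboxylate genes, 5 were tested, with a median log2 fold change of 0.08. The reductases *Pycr1* (71.0 and 75.1 CPM) and *Pycr3* (18.6 and 16.6 CPM), which make proline from pyrroline-5-carboxylate, stood at log2 fold changes of 0.08 and -0.15.

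Genes that use arginine were few in these libraries. Of 10 on the list 4 were tested, among them the arginine methyltransferases *Prmt1* (23.2 and 25.2 CPM, log2 fold change 0.13) and *Prmt5* (16.3 and 15.1 CPM, -0.11) and the agmatinase gene *Agmat* (5.01 and 3.94 CPM, -0.34). *Nos1* and *Nos3*, the nitric oxide synthases of neurons and endothelium, had no count in any mouse, and inducible *Nos2* had 81 counts over the 8 mice, 52 of them in control replicate 1. *Gatm*, the entry enzyme of creatine synthesis, had 3 counts over the 8 mice. Polyamines are made from ornithine, and the list for them (11 genes, 10 tested) had a median log2 fold change of 0.22. *Odc1*, ornithine decarboxylase, had 62.6 CPM in the control mice and 75.9 CPM in the zinc deficient mice (log2 fold change 0.28, standard error 0.19, edgeR adjusted p = 0.649). *Srm*, spermidine synthase (38.0 and 45.6 CPM, 0.27), and *Oaz1*, the antizyme that restrains ODC1 (59.8 and 74.1 CPM, 0.31), had differences of similar size.

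*Cad* codes for the cytosolic counterpart of CPS1, which makes carbamoyl phosphate for pyrimidines. It had 45.7 CPM in the control mice and 49.2 CPM in the zinc deficient mice (log2 fold change 0.11, standard error 0.26), next to *Dhodh* at -0.02 and *Umps* at -0.11. Of the 8 regulators, transcription factors and sirtuins known to act on urea cycle genes or enzymes, *Hnf4a* was the most abundant per length, with 159 and 140 CPM (log2 fold change -0.19, standard error 0.15, edgeR adjusted p = 0.726). *Cebpa*, a factor of the C/EBP family, followed (19.3 and 16.5 CPM, -0.23). The glucocorticoid receptor gene *Nr3c1*, chosen here after its values were seen, had 19.6 and 12.3 CPM without overlap between diets (log2 fold change -0.67, standard error 0.18, edgeR adjusted p = 0.123). When CPM was taken from the total counts, its diets overlapped (control replicate 3 at 15.4 CPM, zinc deficient replicate 3 at 16.6 CPM).

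**Figure D5:**
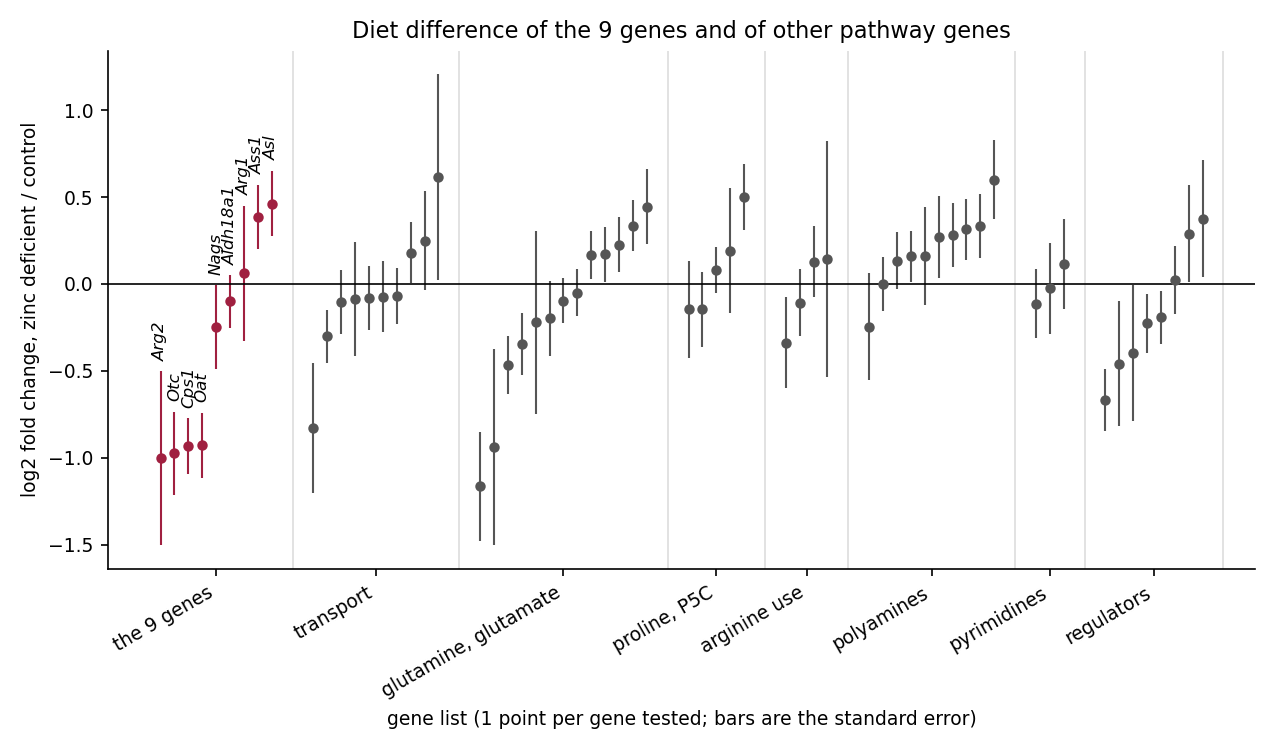
log2 fold change (zinc deficient over control, edgeR) of the 9 genes, in red, and of the 53 tested genes of 7 related lists, in grey, with bars for the standard error. *Arg2*, *Otc*, *Cps1* and *Oat* lie between -1.0 and -0.93, and the medians of the 7 lists lie between -0.21 and 0.22.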

How the data were processed

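Paneth cells of 8 C57BL/6J mice gave 1 stranded mRNA library each. The table the authors deposited holds raw counts for each Ensembl identifier, with no normalization. The submitters' processing notes name FastQC 0.12.0, STAR 2.7.0a, DESeq2 and the build mm39. The counting program, its annotation and its treatment of reads that match several genes were not given in the sources used here. Samples were matched to columns by diet and replicate number in their titles, and 0 columns of other samples were present.

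Names, lengths and positions came from GENCODE M39 on GRCm39, in which 54749 of the 55414 identifiers were found. Diets were compared with edgeR 4.0.16 (TMM, expression filter, robust quasi-likelihood test, Benjamini-Hochberg adjustment, threshold 0.05), and DESeq2 1.42.0 was an alternative. The edgeR test gives no standard error. Each standard error given is the absolute log2 fold change divided by the square root of the F statistic of that test. The edgeR step was tested on simulated data in which 200 genes were changed. It called 65% of the genes with a 2-fold change and 91% of those with a 4-fold change. Of its calls, 6.59% were false. RPKM used total counts and canonical transcript lengths. Sequence copies were searched with BLAST 2.17.0. Libraries within a diet were not copies of each other (chi-square over degrees of freedom 5.43 to 55.1).

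The 9 genes and the lists of genes and motifs were chosen with earlier results of these data known. Genes named beside the 9 are the 3 most abundant per length of each pathway list, any called gene of these lists, the markers, and the 5 genes most like *Cps1*. Some items under this rule, and 1 of the 9 promoter windows, are not reported here. *Slc1a1*, *Nr3c1*, the genes without a count and those given for their low counts were named after their values were seen. The length definition was chosen after the lengths were seen, and the summed exon length was added as an alternative then. Intervals for counts of 0 cover counting error only, and p-values measure the spread between these mice. For the order of levels, this spread includes the difference between diets.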

Additional observations from a re-analysis of the deposited data

Results flagged for a closer look

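Among the 18 groups of 4 mice formed by the 9 genes and the 2 diets, 2 held a mouse far from the other 3 (Dixon's criterion, which chance meets in about 1 of 20 groups). *Otc* in zinc deficient replicate 1 had 9.60 CPM, against 5.89 to 6.06 CPM in the other 3 mice of this diet. *Arg1* in control replicate 4 had 2.86 CPM, against 1.39 to 1.51 CPM in the other control mice, where 3 counts correspond to 0.318 CPM in that library. No cause of either value was tested.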

How the results depend on the processing

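The number of genes called between diets, 44 with edgeR, was 134 with DESeq2, 251 without the filter on low counts, 11 with library size only and 25 without the robust option, and it ranged from 8 to 36 as each mouse was left out. Of the 9 genes, 2 were called in the comparison of diets, 1 without the robust option, and 0 to 3 as each mouse was left out. Of the other pathway genes, 0 were called under every alternative except the fit without the filter, which called 2 (*Slc1a1* and *Nr3c1*). The cause of these differences was not tested. Under all alternatives the log2 fold changes of *Cps1* ranged from -1.29 to -0.88, of *Oat* from -1.21 to -0.85, of *Otc* from -1.27 to -0.79, of *Ass1* from 0.02 to 0.50 and of *Asl* from 0.12 to 0.61, with the lowest under library size only. With the replicate number as a block (replicate block), 53 genes were called, *Cps1* and *Oat* among them. The correlations of same-numbered mice were 0.0198 to 0.116, not all over 0.1, so the numbers were not taken to pair the mice. Control replicates 1, 2 and 4 each correlated best with their own number, and control replicate 3 with zinc deficient replicate 4 (0.172). The number of neighbours in level that differed, 3 of 8, was 2 with summed exon lengths, an alternative chosen after seeing the data, and 4 without length. Of the 5 genes most like *Cps1*, at least 3 were shared under each alternative. Low depth limits *Arg1* and *Arg2* most, with 159 and 238 counts over the 8 mice.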
